A study of Mus musculus with 18 samples.

Results

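Several genes that are read at far higher levels in brown than in white fat of these mice, and whose work in fat is little described, were followed here: Ddo, Kng1, Kng2, BC090627, Letmd1 and Tuba8. They are 6 of the 52093 symbols in the files, each taken by the row with the highest mean RPKM (reads scaled to transcript length and to the total of the library) over the samples. They were selected on their RPKM and fold change in BAT over white fat in these same samples, so values of that difference describe the choice and carry no test. The series holds 18 RNA-seq samples from male wild type mice, fed high-fat chow (HFD in the labels) over 12 weeks. There are 6 samples of floating adipocytes freed with collagenase from inguinal white fat (iWAT adipocytes), 6 of such adipocytes from epididymal white fat (eWAT adipocytes) and 6 of whole frozen brown adipose tissue (BAT), which a cell type field of the labels calls BAT adipocytes. The strain is C57BL/6 in the labels, C57BL/6J in their protocol and C57BL/6NTac in a note of the study, which gives an age of 16 weeks. A treatment field of the labels names regular chow for all samples, against the HFD of their titles. All carried the diet, so no effect of diet can be read. BAT stands for a whole tissue and the white samples for a cell fraction, and BAT libraries carry the lane tags 3 and 4 while white libraries carry 1 and 2, so tissue, preparation and lane cannot be told apart in any comparison with BAT.

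Brown adipocytes burn fatty acids to make heat, through a dense set of mitochondria and the uncoupling protein Ucp1, whereas white adipocytes mainly store fat. The 6 genes belong to unlike pathways. Ddo codes for D-aspartate oxidase, a peroxisomal flavoenzyme that breaks down D-aspartate and leaves hydrogen peroxide. Kng1 and Kng2 code for the kininogens of the mouse, secreted proteins made mainly in liver that are cut by kallikreins to release bradykinin, which widens vessels and acts through the receptors Bdkrb1 and Bdkrb2. Letmd1 codes for a protein of the inner mitochondrial membrane with a domain like that of the cation transport protein Letm1. Tuba8 codes for an alpha tubulin of narrow tissue distribution, known from heart, skeletal muscle and testis. BC090627 is named Gm44502 in RefSeq and classed as a long noncoding RNA. It reads through from Chkb, a choline kinase, into Cpt1b, which codes for the muscle and brown fat form of the enzyme that lets fatty acids into mitochondria.

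The 250 bases before the annotated start are shown for the 4 genes that the RefSeq promoter table holds, so that the regulatory sequence of the genes can be set beside their levels. They were taken from RefSeq on build GRCm38.p6, whose coordinates differ from those of the files. Capitals mark AGGTCA, the core element bound by many nuclear receptors, on either strand (TGACCT on the other strand). They lie at chr10:40629761-40630010 on the plus strand for Ddo, chr16:23029102-23029351 on the minus strand for Kng2, chr15:100468761-100469010 on the plus strand for Letmd1 and chr6:121210484-121210733 on the plus strand for Tuba8, each written 5′ to 3′.
Ddo: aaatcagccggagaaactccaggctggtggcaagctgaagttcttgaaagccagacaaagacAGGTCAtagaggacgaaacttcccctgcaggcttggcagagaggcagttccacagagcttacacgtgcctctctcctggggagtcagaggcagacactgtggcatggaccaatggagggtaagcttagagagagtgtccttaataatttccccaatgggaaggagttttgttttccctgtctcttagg
Kng2: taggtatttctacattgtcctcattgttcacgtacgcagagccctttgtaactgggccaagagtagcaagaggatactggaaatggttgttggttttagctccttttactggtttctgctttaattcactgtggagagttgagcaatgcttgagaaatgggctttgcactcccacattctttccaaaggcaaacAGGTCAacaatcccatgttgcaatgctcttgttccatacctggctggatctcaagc
Letmd1: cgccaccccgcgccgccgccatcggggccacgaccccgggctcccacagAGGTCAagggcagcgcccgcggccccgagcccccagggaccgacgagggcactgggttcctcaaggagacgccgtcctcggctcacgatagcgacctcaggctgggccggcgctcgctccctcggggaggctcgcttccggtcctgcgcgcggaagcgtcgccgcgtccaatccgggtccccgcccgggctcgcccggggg
Tuba8: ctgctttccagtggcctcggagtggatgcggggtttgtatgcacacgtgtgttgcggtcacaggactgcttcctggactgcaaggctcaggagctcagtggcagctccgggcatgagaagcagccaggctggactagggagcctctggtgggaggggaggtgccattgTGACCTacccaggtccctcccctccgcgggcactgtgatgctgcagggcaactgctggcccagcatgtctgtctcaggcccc
Each of the 4 windows held 1 match to AGGTCA, which 14% of 32851 promoter windows of the same length held. Its first base was 188 bases before the start of Ddo, 56 before that of Kng2, 201 before that of Letmd1 and, on the other strand, 82 before that of Tuba8. The longer TCAAGGTCA (0.387% of windows), a pair of AGGTCA elements in a row with 1 base between them (0.0335%) and the cyclic AMP element TGACGTCA (1.55%) matched none of the 4 on either strand; the first 2 contain AGGTCA. GC content ran from 44.4% for Kng2 to 77.6% for Letmd1. The elements were chosen after the sequences were seen, and a match is a run of letters, not a site of binding.

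The tissues were checked first. Reads per sample on all rows numbered 24655056 to 42518483. Ucp1 had a mean of 1858 ± 237 RPKM in BAT (SD, n = 6), 2.26 ± 0.59 in iWAT adipocytes and 0.261 ± 0.084 in eWAT adipocytes, and Zic1, a gene of brown fat, was at 0 or 1 read in every white library. The 6 brown adipocyte markers together reached 2235 to 3029 RPKM in BAT, 12.1 to 17.2 in iWAT and 3.45 to 5.62 in eWAT adipocytes. The 4 macrophage markers summed to 690 to 1040 RPKM in eWAT adipocytes, 146 to 259 in iWAT adipocytes and 4.0 to 7.64 in BAT. For the 6 skeletal muscle markers the sums were 1.56 to 110 RPKM in BAT, 4.34 to 16.9 in iWAT and 1.27 to 4.97 in eWAT adipocytes. The 3 endothelial markers together lay between 54.3 and 83.9 RPKM in BAT, with 31.6 to 67.8 in eWAT and 89.9 to 260 in iWAT adipocytes. Adipocyte markers (4 genes) summed to 629 to 824 RPKM in BAT, 2605 to 3840 in iWAT and 517 to 1812 in eWAT adipocytes. The 6 epididymis and testis markers summed to 0.221 to 14.5 RPKM in eWAT adipocytes and to at most 0.0684 elsewhere.

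Per length of transcript, BC090627 and Letmd1 were the most abundant of the 6 genes in BAT and Kng1 the least. Mean levels in BAT were 127 ± 16 RPKM for BC090627, 89.6 ± 11.7 for Letmd1, 36.9 ± 3.2 for Kng2, 15.1 ± 1.1 for Tuba8, 6.84 ± 0.52 for Ddo and 0.0376 ± 0.0228 for Kng1 (SD, n = 6). Among symbols ordered by mean RPKM in BAT, these are the places 266, 371, 870, 2017, 4097 and 24845. In BAT the ranges of neighbours in this order did not overlap, though BC090627 and Letmd1 came close, at 109 RPKM for the lowest BC090627 sample against 108 for the highest Letmd1 sample. In the white depots only BC090627 and Letmd1 passed 1 RPKM. For all 6 genes, every BAT sample was above every white sample in RPKM, a property of how they were picked. The share of all symbols whose samples separate in this way is not given here, so the separation does not set these genes apart. For Kng1 the separation rests on library size alone. Its BAT sample 5 (0.0129 RPKM), iWAT sample 16 (0.0101) and eWAT sample 1 (0.00767) each held 1 read. Of all symbols tested with edgeR, 37.2% were called higher and 38.1% lower in BAT than in iWAT adipocytes, and 41.4% higher and 41.1% lower than in eWAT adipocytes. Scaled by the total count alone these calls split into 3054 higher and 13703 lower over iWAT adipocytes and 4061 and 12965 over eWAT adipocytes, against 7336 and 7528, and 8318 and 8243, with TMM.

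**Figure D1:**
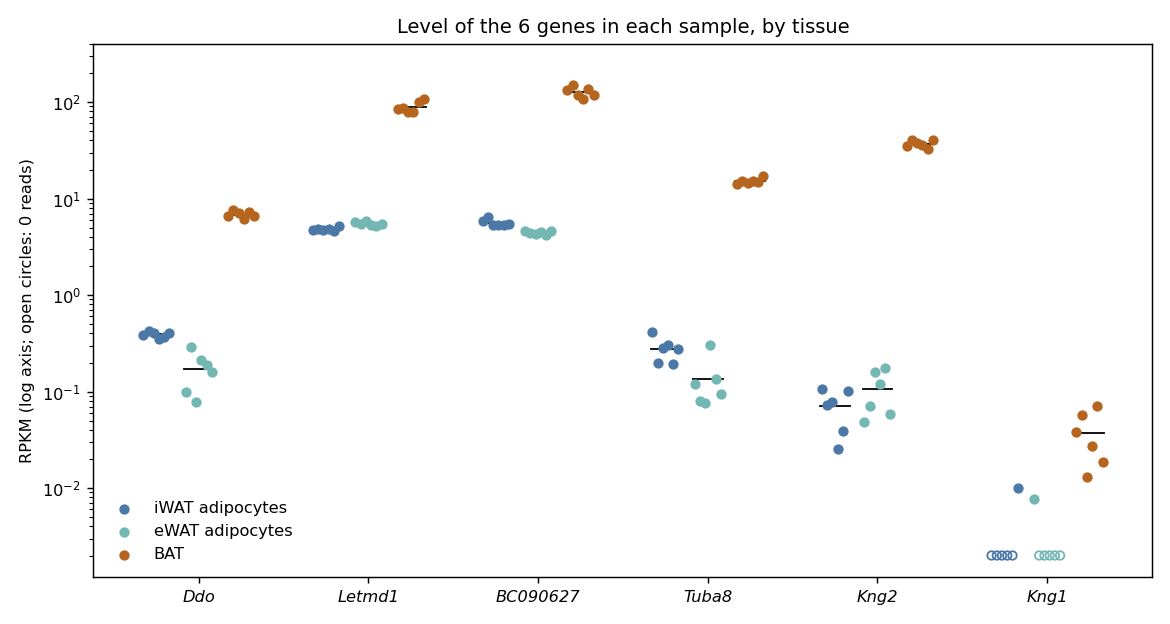
RPKM of the 6 genes in each of the 18 samples on a log axis, with points coloured by tissue and black lines for the mean of 6 samples (not drawn for Kng1 in white depots). All BAT points lie above the white points of the same gene, and Kng1 has no read (open circles) in 10 of 12 white samples. For Kng1 the lowest BAT point and the white points with a read are each 1 read.

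In these bulk samples, fewer cells of a type and less RNA per cell cannot be told apart. Ddo, the D-aspartate oxidase (chr10:40349817-40401653, plus strand, mm9), had 0.354 RPKM in its lowest iWAT sample, a median of 0.394 and 0.428 in its highest. In eWAT adipocytes it ran from 0.0779 through a median of 0.173 to 0.287 RPKM, and in BAT from 6.11 through 6.81 to 7.55. The 3 tissues did not overlap, and eWAT adipocytes were the most scattered, with a coefficient of variation of 45.2% against 7.25% in iWAT adipocytes and 7.66% in BAT. The mean RPKM in BAT was 17.5 times that in iWAT adipocytes and 40.0 times that in eWAT adipocytes, and the folds fitted with TMM scaling were 26.6 and 60.6. With 20 to 110 reads per white library, the counts behind the white levels were small.

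Letmd1, the protein of the inner mitochondrial membrane (chr15:100299465-100309683, plus strand), had 4.59 RPKM in its lowest iWAT sample, a median of 4.78 and 5.16 in the highest. The eWAT samples spanned 5.21 to 5.93 with a median of 5.48, and the BAT samples 78.4 to 108 with a median of 86.1. The 3 ranges were separate, with eWAT just above iWAT. The mean RPKM in BAT was 18.6 times that of iWAT adipocytes and 16.3 times that of eWAT adipocytes, and the folds fitted with TMM scaling were 28.3 and 24.5. Each library held at least 831 reads on the row. The deposited row gives Letmd1 5 exons and 6286 bases, whereas GENCODE vM1 on the same build has 9 exon blocks and 2579 bases, so the RPKM of Letmd1 depends on which gene model is used. For the reads counted on this row, the folds between tissues do not depend on the length. Another set of exons could count other reads, and its folds were not computed.

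Tuba8, the alpha tubulin (chr6:121160752-121176872, plus strand), ran from 0.194 through a median of 0.277 to 0.410 RPKM in iWAT adipocytes and from 0.0756 through 0.107 to 0.305 in eWAT adipocytes. In BAT it ran from 14 through 15 to 17.2 RPKM. The white depots overlapped, as 1 eWAT sample (number 4, 0.305 RPKM) reached the level of iWAT, while the other eWAT samples were at or under 0.136. The mean RPKM in BAT was 54.7 times that in iWAT adipocytes and 112 times that in eWAT adipocytes, and the fitted folds with TMM scaling were 82.9 and 173. A further Tuba8 row on the minus strand (chr6:121173710-121176173) lies inside the gene and held 5.85 ± 0.57 RPKM in BAT, 0.0949 ± 0.0589 in iWAT adipocytes and 0.0349 ± 0.0446 in eWAT adipocytes. The strand setting of the counting is not given in the sources used here, so reads of the opposite strands cannot be told apart.

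Since Tuba8 is also known from muscle, its levels were set beside the muscle markers of each BAT library. The BAT sample with the lowest sum of muscle markers (number 2, 1.56 RPKM) had 15.1 RPKM of Tuba8, and the sample with the highest sum (number 5, 110 RPKM) had 14.5. The highest Tuba8 level (17.2, number 18) was in a library with a muscle sum of 62.4. Without sample 5, the library with the highest muscle sum, the mean of Tuba8 in BAT was 15.3 ± 1.2 RPKM (n = 5). BC090627 was at 151 RPKM in sample 2 and 118 in sample 5. The part of muscle RNA in these levels was not tested.

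Kng2, a kininogen gene (chr16:22985925-23029174, minus strand), had 2 to 8 reads per iWAT library and 5 to 13 per eWAT library, against 2061 to 3944 per BAT library. It ran from 0.0255 through a median of 0.0754 to 0.107 RPKM in iWAT adipocytes and from 0.0482 through 0.0949 to 0.174 in eWAT adipocytes. In BAT it ran from 32.3 through 36.7 to 40.5 RPKM. The white depots overlapped each other, and the lowest BAT sample was 186 times the highest white sample. The ratio of pooled reads per total was 524 for BAT over iWAT adipocytes (95% exact interval 371 to 766, counting error only) and 370 for BAT over eWAT adipocytes (280 to 500). Its fitted log2 fold change was 9.60 (SE 0.18) over iWAT adipocytes, place 13 from the top of 19745 symbols, and 9.08 (SE 0.21) over eWAT adipocytes, place 29 of 20076. Kng2 was picked on this difference, so these places describe the choice. With 32 reads over the iWAT and 49 over the eWAT libraries, Kng2 reached the mean count of 10 needed for a fit through BAT alone.

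Kng1, the other kininogen gene (chr16:23057938-23082151, plus strand), was read in BAT only at the edge of detection. Its 6 BAT libraries held 1, 2, 2, 4, 7 and 8 reads, 24 in all, and each white depot held 1 read over its 6 libraries. The ratio of pooled reads was 22.9 for BAT over iWAT adipocytes, with a counting interval of 3.73 to 941, and 24.8 over eWAT adipocytes, with an interval of 4.04 to 1018. Kng2 made up at least 99.8% of the summed kininogen RPKM in each BAT library. Of the 50-base words in the GENCODE transcripts of Kng1, 16.1% also occur in Kng2, so a part of the few Kng1 reads may belong to its neighbour. How multi-mapped reads were counted is not given in the sources used here. The name of a BAT-enriched gene rests for Kng1 on these 24 reads.

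The kininogen genes stand back to back, with 28763 bases between their rows, in a stretch that also holds liver genes and Adipoq. Hrg, Ahsg and Fetub, which code for plasma proteins of the liver, had means of 0, 0 and 0.106 RPKM in BAT. Eif4a2, a translation factor gene on the far side of Kng1, was at 21.2 ± 2.5 RPKM in BAT, 17.2 ± 1.3 in iWAT adipocytes and 13.5 ± 1.0 in eWAT adipocytes. Adipoq, the adiponectin gene, 64457 bases beyond Kng1, was lower in BAT than in iWAT adipocytes, by a log2 fold change of -1.75 (SE 0.13, adjusted p = 5.0e-09). Its difference between BAT and eWAT adipocytes was -0.22 (SE 0.27, adjusted p = 0.46). The row ENSMUSG00000090021, a pseudogene that GENCODE names Gm6493, lies in an intron of Kng2 and shares 0 exon bases with it. This row moved the other way, at 1.65 ± 0.61 RPKM in BAT against 6.95 ± 0.56 in iWAT adipocytes and 8.63 ± 1.0 in eWAT adipocytes. Markers of other tissues that make kininogen were read as well. The 7 hepatocyte markers summed to 0.554 to 1.03 RPKM in BAT, 2.55 to 4.78 in iWAT and 0.708 to 2.36 in eWAT adipocytes. In BAT, albumin was at 0.0115, 4 of the 7 were at 0 in all libraries and Apoa2 (0.722) was the highest. The 5 kidney tubule markers summed to at most 0.0130 in BAT, with 4 of 5 at 0. The part of RNA from such tissues in the level of Kng2 was not tested.

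**Figure D2:**
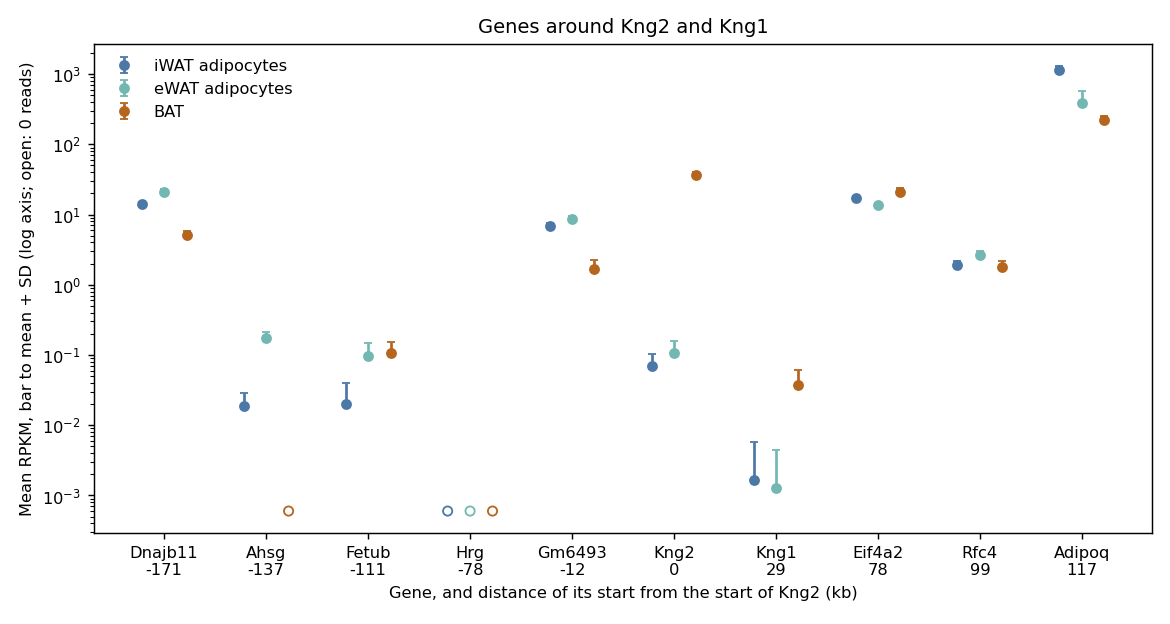
Mean RPKM of genes around Kng2 and Kng1 on a log axis, in order along chromosome 16, with bars up to mean + SD (n = 6 per tissue) and open circles for 0 reads. Kng2 is the gene whose BAT mean (36.9) stands far above both white means, while Gm6493, inside it, is lowest in BAT.

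BC090627 (chr15:89246836-89260358, minus strand) ran from 5.29 through a median of 5.41 to 6.39 RPKM in iWAT adipocytes, while eWAT samples lay between 4.15 and 4.58 (median 4.43) and BAT samples between 109 and 151 (median 125). The 3 ranges did not overlap, and the mean RPKM in BAT was 22.7 times that of iWAT adipocytes and 28.9 times that of eWAT adipocytes, or 34.5 and 43.4 times as fitted with TMM scaling. Its row holds the whole row of Cpt1b (chr15:89246836-89256294) and has the ends of the row of Chkb, all on the minus strand. C730034F03Rik, on the plus strand, overlaps 2.99% of it and had 2.66 ± 0.62 RPKM in BAT. A read on an exon that they share can be counted for each, so its level is not that of a separate transcript. Chkb had 97 ± 12 RPKM and Cpt1b 187 ± 23 in BAT.

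The reads of the 3 rows were therefore set beside each other. The Cpt1b row held reads equal to 93.7 ± 1.4% of those of BC090627 in BAT, 33.1 ± 1.8% in iWAT adipocytes and 14 ± 3.4% in eWAT adipocytes (SD, n = 6). If every read of Cpt1b was also counted on BC090627, the reads left for BC090627 were 36.2 ± 9.2 RPM (reads scaled to the library total alone) in BAT, 17 ± 1.3 in iWAT adipocytes and 17.2 ± 1.0 in eWAT adipocytes. These remaining reads ran from 24.5 to 50.9 RPM in BAT, from 15.6 to 19.5 in iWAT and from 15.5 to 18.2 in eWAT adipocytes. BAT still stood apart from the white depots, by 2.13 and 2.11 times, against 22.7 and 28.9 times for all reads of BC090627. With TMM scaling the remainder was 55.1 ± 12.9 in BAT, 14.1 ± 1.6 in iWAT and 13.6 ± 0.55 in eWAT adipocytes, or 3.91 and 4.06 times. The white depots overlapped, with a difference of -0.185 RPM, iWAT minus eWAT (two-sided exact permutation test, n = 6 per group, p = 0.81), and with TMM scaling it turned to 0.542 (exact permutation p = 0.57). Both tests were added after the data were seen. The remainder can hold reads of Chkb as well. Whether every Cpt1b read was counted on BC090627 was not tested. In GENCODE vM1, 2744 of the 3372 exon bases of Cpt1b are shared with Chkb, and a Cpt1b read not counted on BC090627 would make the remainder larger.

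**Figure D3:**
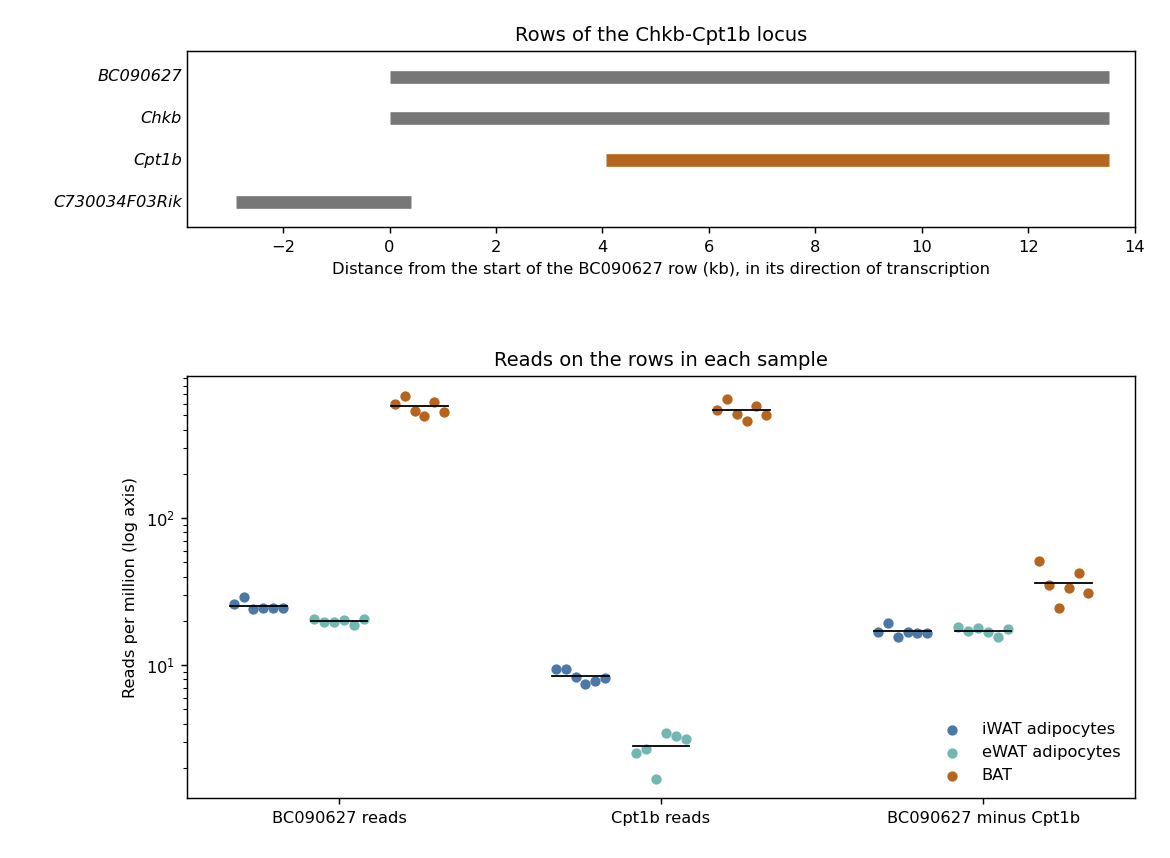
Above, the extent of the rows at the Chkb-Cpt1b locus, in kb from the start of BC090627. Below, RPM in each sample on a log axis for BC090627, for Cpt1b and for their difference, with black lines for the mean of 6 samples, where BAT and white points are far apart for Cpt1b (541 against 8.42 and 2.80 on average) and close for the difference (36.2 against 17 and 17.2).

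Between the white depots the genes were not picked, and they were tested. Of the 6 genes, 4 had enough reads (a mean count of at least 10), and 4 of these 4 passed an adjusted p of 0.05 in edgeR's quasi-likelihood test. Of all 19623 symbols tested, 68.6% passed, 34.1% as higher in iWAT and 34.5% as higher in eWAT, so a call is the usual outcome here. Ddo was higher in iWAT adipocytes by a log2 fold change of 1.21 (SE 0.25, adjusted p = 0.00085), and the ranges did not overlap. Tuba8 was higher in iWAT adipocytes by 1.07 (SE 0.33, adjusted p = 0.011), on 5 to 27 reads per library. BC090627 was higher in iWAT adipocytes by 0.36 (SE 0.07, adjusted p = 0.00033), while Cpt1b was higher there by 1.60 (SE 0.15, adjusted p = 1.7e-06). If every Cpt1b read was also counted on BC090627, the reads left differed by -0.185 RPM, iWAT minus eWAT (two-sided exact permutation p = 0.81). The call of BC090627 can thus not be told apart from reads of Cpt1b. Letmd1 was the exception in direction, at -0.18 (SE 0.06, adjusted p = 0.0097), which is a small excess in eWAT adipocytes. Ucp1 itself was higher in iWAT adipocytes by 3.09 (SE 0.24, adjusted p = 4.0e-07).

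Within each lane tag the 4 directions were the same. The log2 ratio of means, iWAT over eWAT, was 1.04 and 1.59 for Ddo in lanes 1 and 2, 1.21 and 1.18 for Tuba8, 0.36 and 0.30 for BC090627 and -0.21 and -0.20 for Letmd1, with 2 iWAT and 4 eWAT samples in lane 1 and 4 and 2 in lane 2. With each of the 12 white libraries left out in turn, all 4 genes passed in all 12 fits, with adjusted p of at most 0.044 for Letmd1. With no filter beyond 1 read, Letmd1 did not pass (-0.16, adjusted p = 0.090). Macrophage markers were higher in eWAT adipocytes and adipocyte markers in iWAT adipocytes, as given above, and their part in these differences was not tested. Kng2 and Kng1 had too few reads for the test. Without the filter Kng2 gave -0.49 (SE 0.42, adjusted p = 0.37), and no fold is given for Kng1, with 1 read in each depot.

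The level of a member and that of Ucp1 were also compared from sample to sample within BAT and within iWAT adipocytes, on log2(RPKM + 0.1). Among these 12 relations, 9 were positive by Pearson's r and none passed after Benjamini-Hochberg adjustment, while 1 had an unadjusted p under 0.05 by exact permutation. This was Letmd1 in BAT, with r = 0.82 (exact p = 0.032, adjusted p = 0.38) and rho = 0.94 (exact p = 0.017, adjusted p = 0.20). Leaving out the 2 samples with the most extreme Ucp1, r was 0.74 (n = 4). Tuba8 in BAT had r = 0.64 (exact p = 0.19, adjusted p = 0.69) and rho = 0.54 (exact p = 0.30, adjusted p = 0.80). In iWAT adipocytes Tuba8 had r = -0.74 (exact p = 0.083, adjusted p = 0.50) and rho = -0.71 (exact p = 0.14, adjusted p = 0.80), and r was 0.07 without the 2 farthest samples, so that it rests on those samples. Ddo in BAT had r = 0.10 (exact p = 0.86, adjusted p = 0.94) and rho = 0.37 (exact p = 0.50, adjusted p = 0.80), and r was 0.97 without the 2 farthest samples. With Cidea in place of Ucp1, r in BAT was -0.38 for Letmd1 and -0.72 for Tuba8. With 4 BAT samples in lane 4 and 2 in lane 3, no value within a lane was computed.

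**Figure D4:**
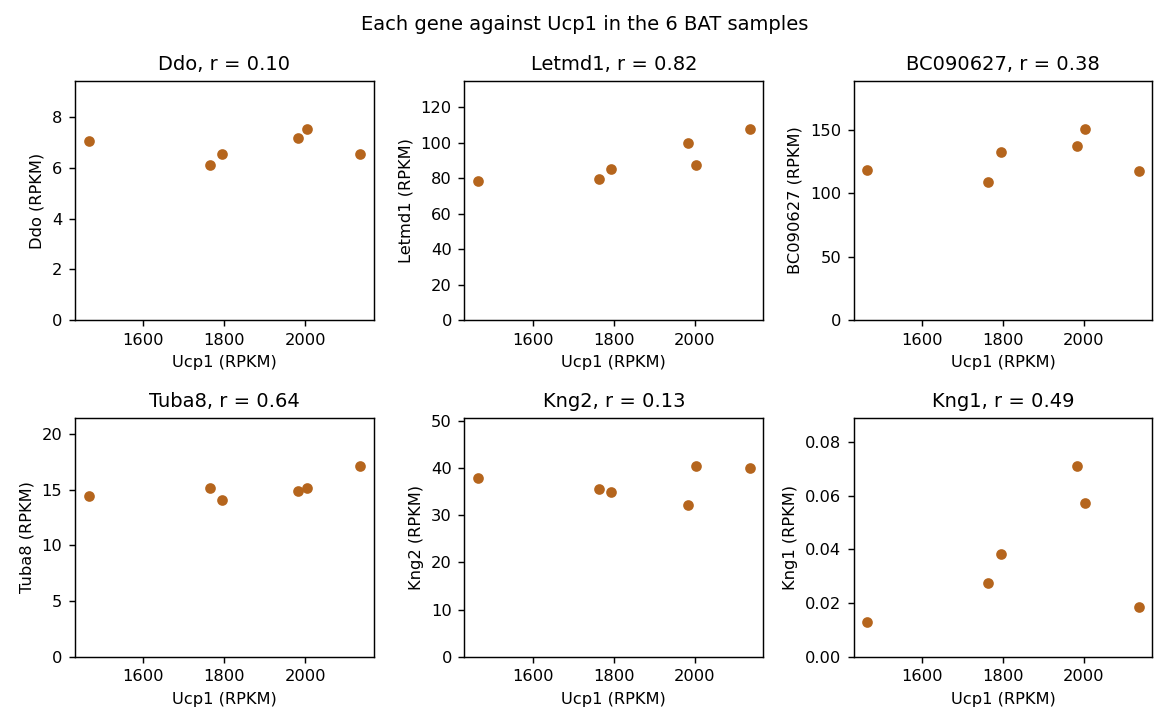
RPKM of each gene against RPKM of Ucp1 in the 6 BAT samples, with Pearson's r of the log2 values above each panel. Letmd1 has the highest r (0.82), and no relation passed after adjustment over 12.

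Over all 18 samples, the symbols whose log2(RPKM + 0.1) ran most like that of each gene were found among 15536 to 15540 symbols with at least 1 RPKM in a tissue. The samples fall into 3 tissues, so these values of r describe the shared contrast of brown and white fat and have no test. For Ddo they were Idh3g, Ppara and Fh1 (r = 0.998, 0.997 and 0.997), which code for a subunit of isocitrate dehydrogenase, a nuclear receptor of fatty acid oxidation and fumarase. For Letmd1 they were AK079595, Hadha and Aspg (0.998, 0.997 and 0.996), where Hadha codes for a subunit of the trifunctional enzyme of beta-oxidation. For Kng2 they were Hadha, AK079595 and Letmd1 (0.996 each). For BC090627 they were Me3, Gpd2 and AK079595 (0.998, 0.997 and 0.997), the first 2 coding for a mitochondrial malic enzyme and the mitochondrial glycerol-3-phosphate dehydrogenase. For Tuba8 they were Mpzl2, Acaa2 and A330068G13Rik (0.996, 0.995 and 0.994), where Acaa2 codes for a thiolase of mitochondria. For Kng1, with its few reads, they were Brap, Phb2 and Vdac1 (0.932, 0.932 and 0.926). Letmd1 thus appears among the closest symbols of Kng2.

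The rest of the kallikrein-kinin system was read beside the kininogens, from 18 genes, without Kng1 and Kng2. Of the proteases that release or activate kinins, Klkb1 (plasma kallikrein) was at 0.0346 RPKM in BAT, Klk1 at 0.0154, F12 at 0.00743 and F11 at 0.00275, at most 6 reads in any BAT library for Klkb1. The Klkb1 row lies whole within a Klkb1/Cyp4v3 row of the same strand (11.8 RPKM over all samples), so its low level depends on how shared reads were assigned. Neither kinin receptor was abundant: Bdkrb2 had 0.124 RPKM and Bdkrb1 0.0159 in BAT. Bdkrb2 differed by a log2 fold change of -0.04 (SE 0.32) between BAT and iWAT adipocytes and 0.04 (SE 0.40) between BAT and eWAT adipocytes, neither past the threshold. Among genes of control, Prcp, which activates plasma kallikrein, and Serping1, which inhibits it, were lower in BAT than in iWAT adipocytes, by -2.11 (SE 0.15) and -2.16 (SE 0.09). Over eWAT adipocytes they were at -3.29 (SE 0.13) and -1.69 (SE 0.14), again lower in BAT.

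Among kininases, the enzymes that break kinins down, Cpn2 stood out. Cpn2 codes for the regulatory subunit of carboxypeptidase N, a plasma enzyme otherwise made in liver. It ran at 10.2 ± 2.8 RPKM in BAT and 0.104 ± 0.033 in iWAT adipocytes, a log2 fold change of 7.21 (SE 0.20, adjusted p = 3.0e-13), while eWAT libraries held at most 3 reads. The ratio of pooled Cpn2 reads for BAT over eWAT adipocytes was 1167 (95% counting interval 592 to 2704). Cpn1, the catalytic subunit of the same enzyme, was at 0.00446 RPKM in BAT. Cpm was higher in BAT by 1.39 (SE 0.23) over iWAT adipocytes and 2.77 (SE 0.21) over eWAT adipocytes. Mme, or neprilysin, had 17.2 ± 3.5 RPKM in BAT and 23.4 ± 3.1 in iWAT adipocytes (0.15, SE 0.13, not past the threshold, and -0.70 without scaling), and was higher in BAT than in eWAT adipocytes by 1.79 (SE 0.26). Cpd was lower in BAT, by -1.09 (SE 0.08) and -1.46 (SE 0.07). Xpnpep1 was lower by a smaller amount, -0.26 (SE 0.07) and -0.42 (SE 0.08), and Dpp4 was higher, by 1.18 (SE 0.25) and 0.92 (SE 0.20), at 0.124 RPKM. Xpnpep2 (0.017 RPKM in BAT) had too few reads for the test. Ace passed as higher over eWAT adipocytes alone at 0.43 (SE 0.18), a direction that turned without scaling (-0.47).

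Over the list, 10 of 18 genes could be tested in BAT against iWAT adipocytes and 7 passed, 3 higher and 4 lower in BAT, with a median log2 fold change of -0.05 against -0.01 for all symbols, of which 75.3% passed. Against eWAT adipocytes 9 of 10 passed, 5 higher and 4 lower, with a median of 0.23 against 0.02 for all symbols, of which 82.5% passed. The higher calls include Cpn2, which had 8 reads over the eWAT libraries and passed the count filter through BAT alone. The split depends on scaling: with the total count alone it was 1 higher and 7 lower over iWAT adipocytes and 3 and 5 over eWAT adipocytes. The medians of the list then moved to -0.92 and -0.66, and those of all symbols to -0.87 and -0.89. Between white depots 6 of 9 passed, 3 each way. These shares are near those of all symbols.

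**Figure D5:**
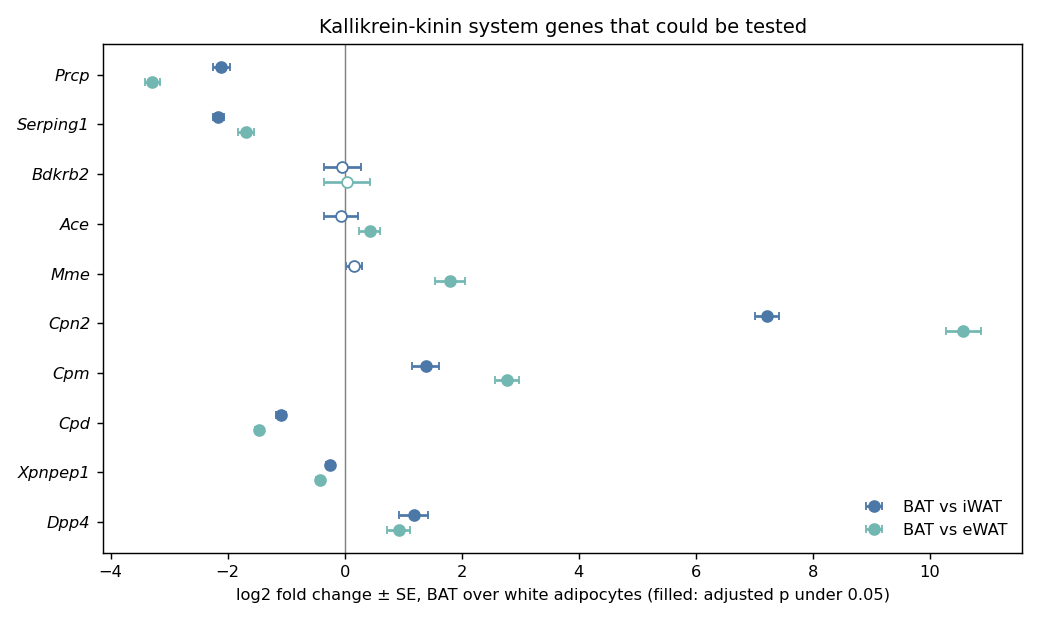
Log2 fold change ± SE (edgeR) of BAT over iWAT adipocytes and over eWAT adipocytes for the 10 genes of the kallikrein-kinin list that could be tested, with filled points for an adjusted p under 0.05. Cpn2 lies far to the right (7.21 over iWAT adipocytes, and a fitted value over eWAT adipocytes that rests on at most 3 reads per eWAT library), and Prcp and Serping1 lie to the left.

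Around Ddo, 15 genes of D-amino acid and aspartate metabolism were read. Dao, the oxidase of other D-amino acids, had no read in BAT, and Srr, the serine racemase, was higher in BAT by 0.96 (SE 0.09) over iWAT adipocytes and 1.29 (SE 0.10) over eWAT adipocytes. Aspg, an asparaginase gene, had 19.8 ± 4.8 RPKM in BAT against 0.0447 ± 0.0233 and 0.0479 ± 0.0268 in iWAT and eWAT adipocytes, where it had 22 and 25 reads over 6 libraries and so passed the count filter through BAT alone. The ratio of pooled Aspg reads was 446 for BAT over iWAT adipocytes (95% counting interval 294 to 712) and 425 over eWAT adipocytes (288 to 657). Nat8l, which makes N-acetylaspartate, and Aspa, which splits it, were both higher in BAT. Nat8l was higher by 1.72 (SE 0.13) over iWAT adipocytes and 3.95 (SE 0.26) over eWAT adipocytes, and Aspa by 2.4 (SE 0.15) and 3.74 (SE 0.21). The mitochondrial aspartate-glutamate carriers were lower in BAT, with Slc25a12 at -0.68 (SE 0.15) and -1.73 (SE 0.15). Slc25a13 had 53 reads over the 6 BAT libraries (3 to 16 in each), against 1356 over the iWAT and 6950 over the eWAT libraries, and passed the count filter through white fat alone. Cat, the catalase that removes hydrogen peroxide in peroxisomes, was abundant in each tissue, at 171 RPKM in BAT, 220 in iWAT and 156 in eWAT adipocytes.

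Of these 15 genes, 12 could be tested over iWAT adipocytes and 8 passed, 5 higher and 3 lower in BAT, where 75.3% of all symbols passed. Over eWAT adipocytes 12 of 12 passed, 8 higher and 4 lower, where 82.5% of all symbols passed. In both comparisons the higher calls include Aspg, which passed the count filter through BAT alone. The lower calls include Slc25a13, which passed it through white fat alone. Without scaling the splits were 3 and 6, and 4 and 5. With TMM the median log2 fold changes were 0.48 and 0.79, against -0.01 and 0.02 for all symbols. Without scaling the medians were -0.36 and -0.12, against -0.87 and -0.89 for all symbols. Between the white depots 10 of 11 passed (68.6% of all symbols), 6 higher and 4 lower in iWAT adipocytes, with Nat8l at 2.25 (SE 0.29) and Aspa at 1.36 (SE 0.24), both on the side of Ddo, and Slc25a13 at -2.23 (SE 0.16) and Got1 at -1.46 (SE 0.16).

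Around Letmd1, 10 genes of the LETM1 family and of cation transport across the inner mitochondrial membrane were read. Letm1, the exchanger gene that gives the family its name, had 19.5 ± 3.1 RPKM in BAT, 6.97 ± 0.71 in iWAT adipocytes and 4.64 ± 0.72 in eWAT adipocytes, with log2 fold changes of 2.09 (SE 0.11) and 2.66 (SE 0.12). Letm2 was at 0.492 RPKM in BAT. Ghitm, an inner membrane protein gene, was at 243 ± 27 RPKM in BAT, higher by 2.00 (SE 0.10) and 2.43 (SE 0.11). Of the calcium uniporter, the dominant-negative subunit gene Mcub (Ccdc109b in the files) was lower in BAT by -3.58 (SE 0.21) and -5.12 (SE 0.16), and its level in white fat was 6.69 ± 1.65 RPKM in iWAT and 19.3 ± 2.8 in eWAT adipocytes. The macrophage markers had the same order of tissues, and their part in it was not tested. The pore gene Mcu (Ccdc109a) was at 1.95 RPKM in BAT, 2.18 in iWAT and 2.69 in eWAT adipocytes. Slc8b1 (Slc24a6), the sodium-calcium exchanger, was lower in BAT by -1.12 (SE 0.09) and -1.86 (SE 0.12).

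Of the 10 genes, all 10 could be tested and 10 passed over iWAT adipocytes (75.3% of all symbols), 7 higher and 3 lower in BAT, and 9 passed over eWAT adipocytes (82.5%), 6 higher and 3 lower. With limma on log2 RPKM, 6 of the 10 passed over iWAT adipocytes. Without scaling the splits were 3 and 5, and 3 and 6, where Smdt1 (1500032L24Rik) and, over iWAT adipocytes, Mcu and Mcur1 (Ccdc90a) were among those that changed side, whereas Letm1 and Ghitm did not. With TMM the medians were 0.67 and 0.36, against -0.01 and 0.02 for all symbols. Without scaling they were -0.19 and -0.55, against -0.87 and -0.89 for all symbols. Between the white depots 8 of 10 passed (68.6% of all symbols), 3 higher and 5 lower in iWAT adipocytes. Letm1 (0.60, SE 0.11) was higher in iWAT adipocytes, the side opposite to Letmd1.

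Tuba8 was read beside 17 other tubulin genes. The abundant alpha tubulins of white fat were lower in BAT: Tuba1a was at 16.9 ± 3.1 RPKM in BAT, 354 ± 53 in iWAT adipocytes and 171 ± 74 in eWAT adipocytes, with log2 fold changes of -3.79 (SE 0.15) and -2.75 (SE 0.26). Tuba1b was at 19.7 and Tuba1c at 12.6 RPKM in BAT, so that Tuba8, at 15.1, had a level like theirs in this tissue. In iWAT adipocytes these genes were at 118 and 117 RPKM, against 0.277 for Tuba8. Rows of Tuba1a, Tuba1b and Tuba1c overlap rows of other symbols, and their own counts are uncertain. Tuba4a was the other alpha tubulin that was higher in BAT, by 2.45 (SE 0.10) and 1.61 (SE 0.17), at 8.95 ± 1.24 RPKM. Tuba3a, Tuba3b and Tubal3 were under 0.02 RPKM in every tissue. Among beta tubulins, Tubb5 was lower in BAT by -1.71 (SE 0.09) and -2.48 (SE 0.10), Tubb6 by -2.36 (SE 0.14) and -3.25 (SE 0.11), and Tubb2b by -1.59 (SE 0.26) and -3.35 (SE 0.22). Tubg2, a gamma tubulin called as higher, had 116 reads over the 6 BAT libraries, 59 over the 6 iWAT libraries and 26 over the 6 eWAT libraries, so that it passed the count filter through BAT. Of the 50-base words in the GENCODE transcript of Tuba8, 0.184% occur in another gene.

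Of the 17 tubulin genes, 12 could be tested over iWAT adipocytes and 10 passed (75.3% of all symbols), 3 higher and 7 lower in BAT, and over eWAT adipocytes 12 of 12 passed (82.5%), 5 higher and 7 lower. Without scaling these were 1 and 8, and 3 and 8. With TMM the medians were -1.45 and -1.86, against -0.01 and 0.02 for all symbols. Without scaling they were -2.31 and -2.78, against -0.87 and -0.89 for all symbols. Between the white depots 11 of 11 passed (68.6% of all symbols), 6 higher and 5 lower in iWAT adipocytes, with Tuba1a at 1.06 (SE 0.26), Tubb4a (Tubb4) at 0.82 (SE 0.31), Tubb2b at -1.73 (SE 0.14) and Tubb6 at -0.87 (SE 0.14).

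Neighbouring genes were read for the other members. The nearest genes with at least 1 RPKM on either side of Letmd1 were Slc11a2 and Csrnp2. They were at 5.12 ± 0.81 and 1.71 ± 0.07 RPKM in BAT, against 89.6 for Letmd1. Csrnp2 lies on the minus strand, and its end is 318 bases from the end of Letmd1. On either side of Tuba8, Pex26 was at 1.30 ± 0.21 and LOC100504054 at 0.742 ± 0.202 RPKM in BAT. On either side of Ddo, Cdk19 was at 2.08 ± 0.31 and 9030224M15Rik at 0.445 ± 0.099 RPKM in BAT, and these had means of 4.46 and 2.58 in iWAT adipocytes. On either side of BC090627, Tymp and Arsa were at 4.84 ± 0.66 and 7.01 ± 0.72 RPKM in BAT. The levels of Letmd1, Tuba8, Ddo and BC090627 in BAT were above those of these flanking genes. As the members were picked on their RPKM in BAT, this describes the choice and carries no test. Rows that overlap a member are not among the flanking genes, and Cpt1b, inside BC090627, was higher in BAT at 187 RPKM against 127.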

How the data were processed

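Total RNA with a RIN above 8 had been made into libraries with a NEBNext Ultra kit and sequenced on a HiSeq instrument, and reads were mapped to the mm9 mouse genome. The submitters' processing notes name cutadapt 1.16 and HISAT2 2.1.0, and the counting program, its strand setting and the gene annotation are not given in the sources used here. The deposited files give, for each of 53445 rows, a whole number count of reads, and the RPKM that the authors computed from the count, the row's length and 1 total per sample (22935346 to 41145280 reads). The NE columns of the files, which the sources used here do not define, were not used.

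For the report, each of 52093 symbols was taken by its row with the highest mean RPKM. Groups came from the sample titles. The members and the gene lists were chosen with earlier results of these data known. Counts were compared with edgeR 4.0.16 in R 4.3.3 (TMM normalization, glmQLFit and glmQLFTest, two-sided) for symbols with a mean count of at least 10 in the samples compared, each pair of tissues in its own fit, with Benjamini-Hochberg adjustment over all symbols tested and a threshold of 0.05. The SE was derived from the F statistic. The procedure was tested on simulated data. Relations with Ucp1 were tested by exact permutation, two-sided, over 12 relations. Likeness was Pearson's r on log2(RPKM + 0.1). Of each list, text names the 4 genes with the highest mean RPKM, the 2 called genes with the largest change in each direction, and genes of the kallikrein-kinin list. Single values of some list genes are not reported here. Other genes of a list (Srr, Dao, Letm2, Mcu and the minor tubulins) were named after their values were seen. Exact binomial 95% intervals and reads at the floor (3 reads) cover counting error only. Depth limits the genes of low level, and those under 0.1 RPKM can rest on a few reads. Counts over all rows were 24655056 to 42518483 per sample, where a read on overlapping rows can be counted more than once. Nothing states that same-numbered samples are 1 mouse. A note of the study gives n = 6 per group of mice, and the labels say no more on separate animals than the sample numbers. The p-values thus measure the spread between these samples. Of the pairs of replicates, each differed by more than the noise of sampling, with a chi-square of 15.7 or more for each degree of freedom. Alternatives were DESeq2 1.42.0, limma 3.58.1 on log2 RPKM, no scaling, no filter, sums over rows, all 18 samples in 1 fit, the lane tag and the sample number. Sequences came from RefSeq (GRCm38.p6), and gene models and transcripts from GENCODE vM1. Python 3.11.15, pandas 2.3.3, numpy 2.4.6, scipy 1.17.1 and matplotlib 3.10.9 were used. Protein sequences were not analysed here.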

Additional observations from a re-analysis of the deposited data

Results flagged for a closer look

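The 18 sets of 6 values (6 genes in 3 tissues) were searched for a lone sample far from the others by Dixon's ratio, above its 95% critical value. For values that follow a normal distribution, chance alone flags about 1 in 20 sets, or 0.9 of 18, and 4 were found. In white fat the sets of Kng1 hold 1 read beside libraries with 0, where the ratio is always 1. The number found can thus not be read as an excess over chance. Tuba8 in eWAT adipocytes had 0.305 RPKM in sample 4, while the other 5 were between 0.0756 and 0.136 (ratio 0.735). Tuba8 in BAT had 17.2 RPKM in sample 18, while the other 5 were between 14 and 15.1 (ratio 0.643). Kng1 had 0.0101 RPKM in iWAT sample 16 and 0.00767 RPKM in eWAT sample 1, each being 1 read where the other 5 libraries had 0.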

How the results depend on the processing

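The sample number used as a replicate block gave 12836 calls for iWAT against eWAT adipocytes, 12486 for BAT against iWAT adipocytes and 15146 for BAT against eWAT adipocytes, against 13454, 14864 and 16561 without it, and kept the 4 members called between the white depots. Nothing in the labels says what a shared number stands for. Deviations of same-numbered samples correlated between -0.30 and 0.52 for the white depots (mean -0.0024 over 6 pairs), and 1 of 6 pairs was the best match of its own number. The counts of calls over all symbols stayed within 1.5 times under every alternative, as did 98 of 100 counts over gene lists. For the LETM1 family list in BAT against iWAT adipocytes, 6 genes passed with limma on log2(RPKM + 0.1) and 6 with limma on log2(RPKM + 1), against 10. The 4 members tested between white depots kept direction under all alternatives and their call in all but 1, Letmd1 with no filter (-0.16, adjusted p = 0.090). With each white library left out (chosen after seeing the data), 4 members passed each time. RPKM scaled by TMM factors moved mean levels to 0.324 for Ddo in iWAT adipocytes and 10.4 in BAT, 56.6 for Kng2 in BAT, 4.66, 3.49 and 194 for BC090627, and 4.0, 4.35 and 137 for Letmd1 (iWAT, eWAT, BAT), and 23.2 for Tuba8 in BAT. Summing both rows of Tuba8 gave 0.372 in iWAT adipocytes and 21.0 in BAT. Without BAT replicate 5, the library with the most muscle signal (chosen after seeing the data), no BAT mean moved by 1 SD. Relations with Ucp1, none called, changed sign with TMM-scaled RPKM for Ddo (-0.014) and BC090627 (-0.0069) in BAT, with a pseudocount of 1 for Kng2 in iWAT adipocytes (-0.055), and with Cidea for Kng2 (-0.19), Letmd1 (-0.38) and Tuba8 (-0.72) in BAT and Kng1 (0.17), Letmd1 (0.40) and Tuba8 (0.35) in iWAT adipocytes. The cause was not tested. Depth limits Kng1 everywhere and Kng2 and Tuba8 in white fat, where libraries held at most 27 reads.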
